A study of Mus musculus with 2 samples.

Results

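The genes followed here, 10 apoptosis genes and p53 death targets, were measured by single-cell RNA-seq in E14 cells, an established male mouse embryonic stem cell line that is pluripotent. They were chosen by symbol and are Bbc3, Pmaip1, Bcl2l11, Bax, Bcl2l1, Mcl1, Fas, Apaf1, Perp and Aen. All 10 were found among the 27998 genes of the count tables. The Idoxuridine cells had spent 24 h with Idoxuridine, a thymidine analogue carrying iodine that replicating cells incorporate into DNA, and the DMSO cells had spent 24 h with the solvent. The treatment label gives 10 µM Idoxuridine and the protocol gives 10 mM, and the label is used here. Both groups share the line, a strain label of C57BL/6 and feeder-free culture in 2i/LIF medium, which holds stem cells in their ground state, and each group is 1 library with no replicate. The series' title concerns differences between cells, and its protocol calls the drug a noise enhancer.

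Apoptosis through mitochondria is decided within the BCL2 protein family. BH3-only proteins, such as those of Bbc3 (PUMA), Pmaip1 (NOXA) and Bcl2l11 (BIM), sense damage or stress, bind the pro-survival proteins of Bcl2l1 (BCL-XL) and Mcl1, and help the pore-forming effector BAX to permeabilise the outer mitochondrial membrane. Cytochrome c then joins the protein of Apaf1 in the apoptosome, which activates caspases, while the receptor Fas starts death from the cell surface. The transcription factor p53, which DNA damage stabilises, can induce Bbc3, Pmaip1, Bax, Perp, Fas, Apaf1 and Aen. Mouse embryonic stem cells are known to enter apoptosis readily after DNA damage.

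The Idoxuridine library held 30454626 unique molecular identifiers (UMIs, each standing for 1 captured transcript end) in 742 cells, and the DMSO library held 40818344 in 811 cells. Median UMIs per cell were 37425 in Idoxuridine cells and 44502 in DMSO cells, and 2 cell barcodes occurred in both libraries. Embryonic stem cell markers were all present (8 of 8), with a summed level of 4454 counts per 1e+06 UMIs (CPM) in Idoxuridine and 6139 CPM in DMSO. Fibroblast markers summed to 12.1 CPM in Idoxuridine and 0.857 CPM in DMSO, with Postn at 0 UMIs in both and Col1a1 and Col3a1 at 0 in DMSO. Primitive endoderm markers summed to 16.3 CPM in Idoxuridine and 2.60 CPM in DMSO, and none of the 7 was at 0. Intervals in parentheses are 95% intervals. For levels, ratios and shares of UMIs they cover counting error only, and for shares of cells the sampling of cells within a library. Cells of a library are not replicates. Every difference below is one between these libraries, with no replicate check and no test.

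Of the 9 members with at least 200 UMIs over both libraries, 5 lay at least 0.5 log2 higher in the Idoxuridine library with separate intervals (Bbc3, Pmaip1, Bcl2l11, Apaf1 and Perp), and none lay lower. Among all 10380 genes with at least 200 UMIs, 18.8% were higher, 4.2% lower and 23% called in either direction by the same measure. The median log2 ratio of Idoxuridine over DMSO was 0.64 over the 9 members and 0.09 over all these genes. Fas, with 145 UMIs, was under the minimum and is described on its own. The other 4, Bax, Aen, Bcl2l1 and Mcl1, did not reach 0.5 in either direction. Trimmed-mean (TMM) scaling shifts every log2 ratio by -0.21, and 4 of the 9 members then stood higher, without Bcl2l11, and none lower. Among all 10380 genes 12.1% were higher and 12.2% lower with TMM scaling. The scaling also sets the split over all genes: of those called, 81.7% were higher by total UMIs, 49.9% with TMM and 42.5% with median-of-ratios scaling.

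**Figure D1:**
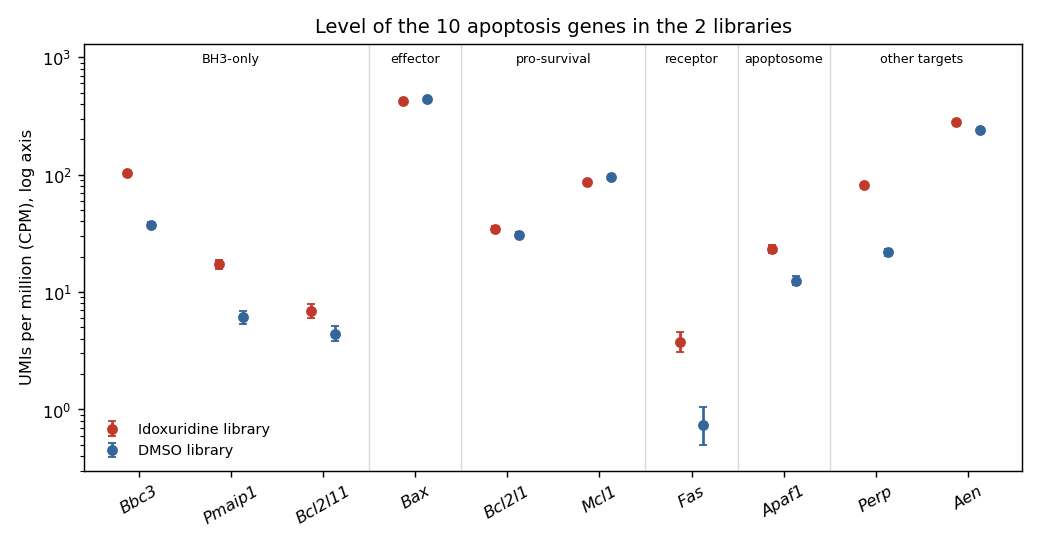
Level of each gene in CPM on a log axis, red for the Idoxuridine library and blue for the DMSO library, with 95% Poisson intervals. Bbc3, Pmaip1, Bcl2l11, Fas, Apaf1 and Perp sit higher in the Idoxuridine library, while Bax, Bcl2l1, Mcl1 and Aen nearly coincide.

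Among the 3 BH3-only members, Bbc3 had the highest level. It stood at 103 CPM (99.2 to 106) in Idoxuridine and 37.4 CPM (35.6 to 39.3) in DMSO, a log2 ratio of 1.46 (1.37 to 1.55). With every cell thinned to 23500 UMIs, a depth that 648 Idoxuridine and 764 DMSO cells reached, 85.6% of Idoxuridine cells (82.7% to 88.3%) and 54.2% of DMSO cells (50.6% to 57.8%) held a Bbc3 UMI. Cells with 3 or more were 42.9% of Idoxuridine cells and 10.5% of DMSO cells. Most cells of both libraries thus held a Bbc3 UMI at this depth. The libraries differed in the share of such cells and in the share with 3 or more.

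Pmaip1, whose short protein mainly neutralises MCL1, was scarcer. Its level was 17.2 CPM (15.8 to 18.8) in Idoxuridine and 6.12 CPM (5.39 to 6.93) in DMSO, a log2 ratio of 1.49 (1.27 to 1.72). A Pmaip1 UMI was seen in 28.7% of Idoxuridine cells (25.2% to 32.4%) and 12.3% of DMSO cells (10.1% to 14.8%). Bcl2l11, which responds mainly to growth factor loss through FOXO factors, was the least abundant of the BH3-only members. It stood at 6.93 CPM (6.02 to 7.93) in Idoxuridine and 4.43 CPM (3.81 to 5.13) in DMSO, a log2 ratio of 0.64 (0.35 to 0.94) that was 0.43 with TMM scaling. Only 12.3% of Idoxuridine cells and 10.3% of DMSO cells held a Bcl2l11 UMI at the fixed depth, with intervals that overlap. No cell type that should lack these genes was identified, so the share that free RNA alone would give could not be measured.

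Bax had the highest level of all members in both libraries. It stood at 427 CPM (420 to 435) in Idoxuridine and 441 CPM (435 to 448) in DMSO, a log2 ratio of -0.05 (-0.08 to -0.02), and every cell of the fixed depth held at least 1 Bax UMI. With TMM scaling the ratio was -0.26. Thus the effector was abundant in DMSO cells already and was not among the genes that stood higher after Idoxuridine.

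The pro-survival genes differed little. Mcl1, which encodes a short-lived protein, stood at 86.7 CPM (83.4 to 90.1) in Idoxuridine and 95 CPM (92 to 98) in DMSO, a log2 ratio of -0.13 (-0.20 to -0.06) that was -0.34 with TMM scaling. Bcl2l1 stood at 34.5 CPM (32.5 to 36.7) in Idoxuridine and 30.5 CPM (28.8 to 32.2) in DMSO, a log2 ratio of 0.18 (0.06 to 0.30) that turned to -0.03 with TMM scaling and -0.07 with median-of-ratios scaling. An Mcl1 UMI was present in 86.6% of cells in both libraries. For Bcl2l1 the share was 54.5% of Idoxuridine cells (50.6% to 58.4%) and 47.8% of DMSO cells (44.2% to 51.4%).

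The other arms of the pathway were led by Fas and Apaf1. The death receptor gene Fas had 115 UMIs and 3.78 CPM (3.12 to 4.53) in Idoxuridine, against 30 UMIs and 0.735 CPM (0.496 to 1.05) in DMSO. Its log2 ratio of 2.36 (1.77 to 2.99) was the highest of the 10, but its interval contains that of Perp (1.79 to 2.01). Outside G1 cells the Fas ratio ran from 1.77 to 4.29 over the alternatives run. Few cells held Fas: 6.64% of Idoxuridine cells (4.84% to 8.83%) and 1.57% of DMSO cells (0.814% to 2.73%) held a Fas UMI at the fixed depth. Apaf1 stood at 23.2 CPM (21.6 to 25) in Idoxuridine and 12.5 CPM (11.5 to 13.7) in DMSO, a log2 ratio of 0.89 (0.73 to 1.06). An Apaf1 UMI was found in 41.8% of Idoxuridine cells and 27.1% of DMSO cells.

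Perp encodes a membrane protein that is a p53 target in dying cells and also a part of epithelial junctions. It stood at 81.5 CPM (78.3 to 84.8) in Idoxuridine and 21.9 CPM (20.4 to 23.3) in DMSO, a log2 ratio of 1.90 (1.79 to 2.01). A Perp UMI was present in 61.1% of Idoxuridine cells (57.2% to 64.9%) and 20.5% of DMSO cells (17.7% to 23.6%), the widest gap in shares among the members. Aen, a p53-induced nuclease gene, was abundant in both, at 282 CPM (276 to 288) in Idoxuridine and 242 CPM (238 to 247) in DMSO. Its log2 ratio of 0.22 (0.17 to 0.26) was 0.01 with TMM scaling and -0.04 with median-of-ratios scaling. By level per captured transcript end, the order was Bax, Aen, Bbc3, Mcl1, Perp, Bcl2l1, Apaf1, Pmaip1, Bcl2l11 and Fas in Idoxuridine cells, with all neighbours but Mcl1 and Perp apart beyond their intervals. In DMSO cells it was Bax, Aen, Mcl1, Bbc3, Bcl2l1, Perp, Apaf1, Pmaip1, Bcl2l11 and Fas, with every neighbour apart.

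**Figure D2:**
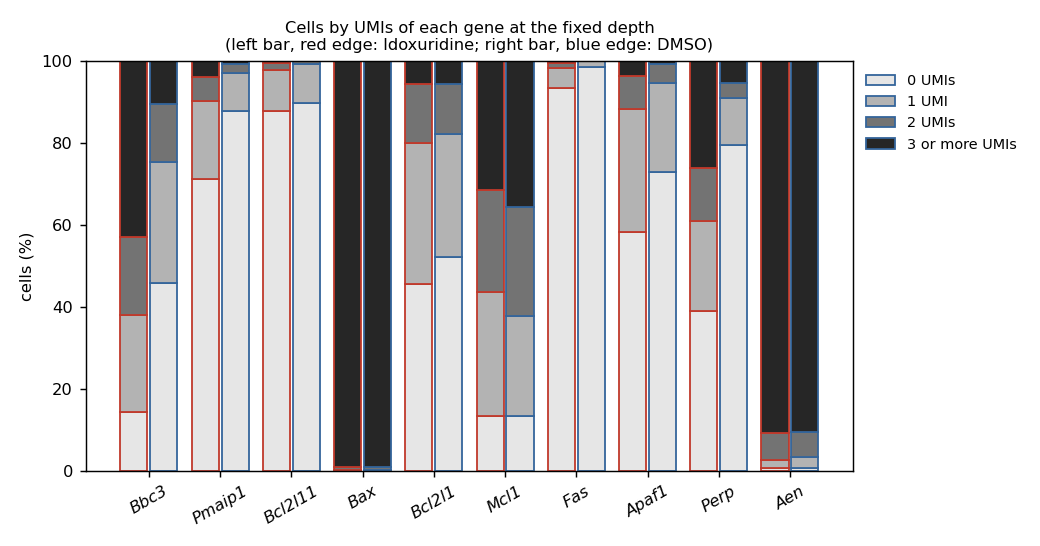
Percent of cells with 0, 1, 2 and 3 or more UMIs of each gene at 23500 UMIs per cell, in 648 Idoxuridine cells (left bars, red edges) and 764 DMSO cells (right bars, blue edges). The dark part for Bbc3 covers 42.9% of Idoxuridine cells and 10.5% of DMSO cells, and cells without a Perp UMI are 38.9% of Idoxuridine cells and 79.5% of DMSO cells.

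Because p53 acts through a response element in DNA, the members' promoter sequences were searched for one. RefSeq promoter windows (GRCm38.p6, 250 bases before to 50 after a start) matched 8 of the 10 members. A response element was taken as a pair of copies of the 10-base p53 consensus motif, at most 1 base apart, with the central 4 bases of each copy intact and at most 3 other mismatches. The motif reads the same on both strands. Such a pair lay in windows of 3 members, Bbc3, Bax and Aen, against 1.23% of the 27025 genes with a window. The 8 matched members had 14 windows, and all 27025 genes had 32851. The rule was set after the member sequences had been seen, so the contrast with 1.23% is not a test. A match is a description of letters, not of binding. Below, capitals mark the motif copies, written 5′ to 3′ on the gene's strand.
Bbc3, chr7:16309466-16309525, plus strand, in an intron of transcript Bbc3-204, 97 to 78 bases before a start, 3 mismatches: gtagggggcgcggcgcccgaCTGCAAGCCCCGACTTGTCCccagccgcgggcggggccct
Bax, chr7:45467059-45467119, minus strand, in an intron of transcript Gm45808-201, 201 to 181 bases before a Bax start, 2 mismatches: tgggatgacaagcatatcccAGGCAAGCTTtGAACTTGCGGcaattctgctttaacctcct
Aen, chr7:78895937-78895956, plus strand, in exons of 4 Aen transcripts and 121 to 102 bases before a further start, 3 mismatches: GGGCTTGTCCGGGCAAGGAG
The 3 genes with such a pair had log2 ratios of 1.46 for Bbc3, -0.05 for Bax and 0.22 for Aen, so 1 of the 3 was among the members that stood higher. The windows of Bcl2l11, Bcl2l1, Mcl1, Apaf1 and Fas held no pair by this rule, which says only that these letters are not in these windows.

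On GRCm38 in GENCODE M21 all 10 members are annotated as protein-coding genes. Bbc3 spans chromosome 7, 16308393 to 16318205, Bax chromosome 7, 45461697 to 45466898, and Aen chromosome 7, 78895854 to 78911209. Bcl2l11 spans chromosome 2, 128126038 to 128162547, and Bcl2l1 chromosome 2, 152780668 to 152831728. Apaf1 spans chromosome 10, 90989311 to 91082770, and Perp chromosome 10, 18845020 to 18857073. Mcl1 spans chromosome 3, 95658788 to 95663176, Fas chromosome 19, 34290666 to 34327772, and Pmaip1 chromosome 18, 66458533 to 66465565. Bax overlaps the predicted gene Gm45808 and Fas the small RNA gene Gm27818 on the same strand, and Apaf1 overlaps Gm25390 on the other strand, and reads in these overlaps were not examined. None of these overlapping genes has an entry in the count tables.

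The balance of pro-death against pro-survival transcripts depended on whether Bax was counted. With Bbc3, Pmaip1, Bcl2l11 and Bax as pro-death genes and Bcl2l1 and Mcl1 as pro-survival genes, pro-death UMIs made up 82.0% (81.5% to 82.6%) of the sum in Idoxuridine and 79.6% (79.1% to 80.1%) in DMSO, a difference of 2.45 percentage points (1.72 to 3.17). Bax supplied 77.1% of pro-death UMIs in Idoxuridine and 90.2% in DMSO. Bbc3 supplied 18.6% (18% to 19.1%) in Idoxuridine and 7.64% (7.28% to 8.02%) in DMSO. At the fixed depth 98.3% of Idoxuridine cells (97.0% to 99.1%) and 97.4% of DMSO cells (96.0% to 98.4%) held more pro-death than pro-survival UMIs, a difference of 0.920 points whose interval (-0.742 to 2.55) includes 0. Nearly all cells that reached the fixed depth thus met this condition. At 10000 UMIs per cell the shares were 93.9% of Idoxuridine cells and 87.4% of DMSO cells, a difference of 6.5 points (3.54 to 9.45). Fewer cells are left out at 10000 UMIs, so depth and cells both differ between these values.

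With Bax left out, the 3 BH3-only members made up 51.2% (50% to 52.3%) of their sum with Mcl1 and Bcl2l1 in Idoxuridine and 27.7% (26.6% to 28.7%) in DMSO, a difference of 23.5 points (21.9 to 25). Among the genes left out in turn, Bax gave the largest difference. All 3 BH3-only members stood higher by level and Mcl1 and Bcl2l1 did not, so the direction follows from those levels. The median cell held 3 BH3-only and 3 pro-survival UMIs in Idoxuridine, against 1 BH3-only and 3 pro-survival UMIs in DMSO. More BH3-only than pro-survival UMIs were found in 44.8% of Idoxuridine cells (40.9% to 48.7%) and 14.3% of DMSO cells (11.9% to 17.0%). The opposite order was found in 38.1% of Idoxuridine cells (34.4% to 42.0%) and 72.4% of DMSO cells (69.1% to 75.5%). The 3 BH3-only members together stood at 127 CPM in Idoxuridine and 48.0 CPM in DMSO, most of it Bbc3, while Mcl1 and Bcl2l1 together stood at 121 CPM in Idoxuridine and 125 CPM in DMSO. Without Bbc3 the share was 16.6% in Idoxuridine and 7.76% in DMSO, a difference of 8.86 points (7.55 to 10.2). With all 10 BH3-only and all 8 pro-survival genes of the lists it was 78.9% in Idoxuridine and 76.5% in DMSO, a difference of 2.38 points (1.56 to 3.21). The 7 other BH3-only genes summed to 335 CPM in Idoxuridine and 367 CPM in DMSO. Most of this was Bnip3l (176 CPM in Idoxuridine and 153 CPM in DMSO) and Bid (104 CPM in Idoxuridine and 173 CPM in DMSO). The difference of 23.5 points thus belongs to the 3 members and chiefly to Bbc3.

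**Figure D3:**
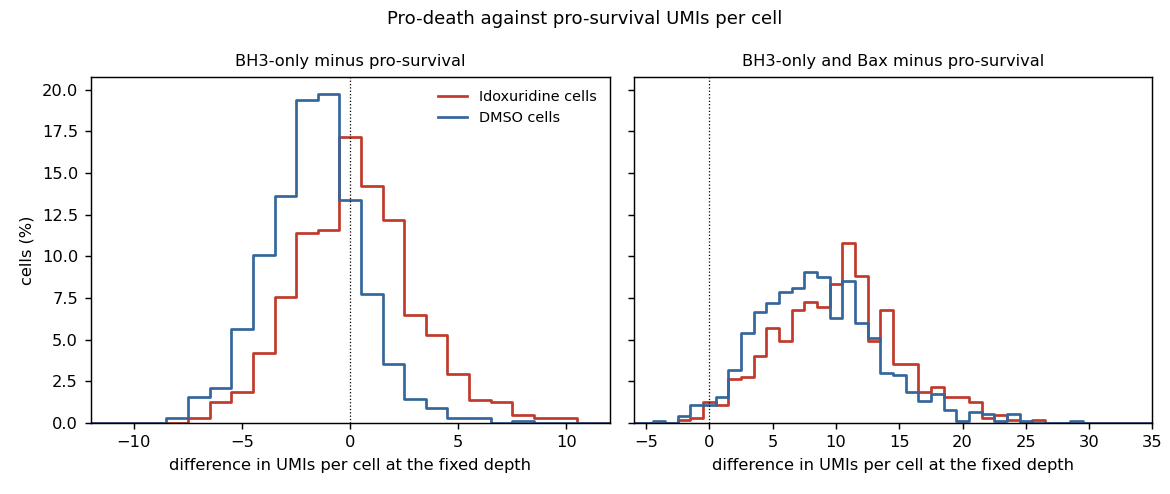
Percent of cells by the difference of pro-death minus pro-survival UMIs per cell at 23500 UMIs, for the 3 BH3-only members alone (left) and with Bax added (right), red for 648 Idoxuridine cells and blue for 764 DMSO cells. On the left the Idoxuridine curve is shifted to the right, with 44.8% of Idoxuridine cells and 14.3% of DMSO cells above 0, and on the right nearly all cells of both libraries lie above 0.

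Which genes were counted set the size of these differences. Without Bbc3 the pro-death share differed by 0.547 points (-0.261 to 1.35) with Bax counted, and without Mcl1 by -0.00635 points. Adding the other 15 genes of the family lists gave 89.2% in Idoxuridine and 88.7% in DMSO, a difference of 0.534 points (0.0958 to 0.970). Bid, a BH3-only gene that links death receptors to mitochondria, stood at 104 CPM in Idoxuridine and 173 CPM in DMSO, a log2 ratio of -0.74 against the direction of Bbc3. The other effectors Bak1 (log2 ratio -0.06) and Bok (-0.17) were close to equal. UMIs count captured transcript ends, and capture differs between genes, so the shares describe transcripts and not proteins.

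Nuclear-retained RNA, markers of other cell types and cell cycle calls also differed between the libraries. The median share of nuclear-retained RNAs was 0.507% of UMIs in Idoxuridine cells and 0.319% in DMSO cells. In 100 Idoxuridine and 129 DMSO cells of a like share (0.357% to 0.429%), the BH3-only share was 50.9% in Idoxuridine and 25.1% in DMSO, a difference of 25.8 points, and Bbc3, Pmaip1, Apaf1 and Perp were still at least 0.5 log2 higher with separate intervals. Bcl2l11 had a log2 ratio of 0.79 in these cells, with intervals that overlap. Cells with at least 5 UMIs of fibroblast or primitive endoderm markers were 31 of 742 in Idoxuridine and 0 of 811 in DMSO, which allows a share of up to 0.370% there, taking 3 cells as the limit of a count of 0. Without those cells the BH3-only share differed by 23.8 points and the same 5 members stood higher. Those 31 cells held 26.2% of the marker UMIs of the Idoxuridine library, and any such UMI was seen in 52.7% of Idoxuridine cells and 14.8% of DMSO cells, so most of this signal was not removed and its part was not tested.

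At the fixed depth, cell cycle phase calls put 57.1% of Idoxuridine cells and 51.8% of DMSO cells in G2/M, and 40.6% of Idoxuridine cells and 47.0% of DMSO cells in S phase. Within S phase cells Bbc3 stood at 112 CPM in Idoxuridine and 36.8 CPM in DMSO, and within G2/M cells at 98.2 CPM in Idoxuridine and 35.6 CPM in DMSO. Perp stood at 71.3 CPM in Idoxuridine and 17.2 CPM in DMSO within S phase, and at 72.6 CPM in Idoxuridine and 14.2 CPM in DMSO within G2/M. The BH3-only share differed by 26.8 points within S phase and 23.1 points within G2/M. Bcl2l11 was at least 0.5 log2 higher within G2/M (0.79) but not within S phase (0.47, 0.02 to 0.92). With Bax counted, the pro-death share differed by 4.40 points within S phase and 1.41 points within G2/M.

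More of the death genes were detected per cell in the Idoxuridine library. Bbc3, Pmaip1, Bcl2l11, Fas, Apaf1 and Perp stood higher there, and nearly all cells of both libraries held Bax and Aen. More genes per cell therefore follows from the levels above. Whether the genes were found together beyond that was not tested. Of the 8 members other than Bcl2l1 and Mcl1, the median cell held UMIs of 4 in Idoxuridine and 3 in DMSO at the fixed depth. At least 6 of the 8 were seen in 14.2% of Idoxuridine cells and 2.36% of DMSO cells, and at most 2 of the 8 in 2.31% of Idoxuridine cells and 24.1% of DMSO cells. Summed over the 8, the median was 21 UMIs (10th to 90th percentile 14 to 31) in Idoxuridine cells and 18 UMIs (11 to 26) in DMSO cells. Most Idoxuridine cells, 65.6%, were above the DMSO median, as were 43.2% of DMSO cells.

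Spread between cells was measured as the Fano factor, the ratio of variance to mean of a gene across cells, which equals 1 for pure counting noise. It was compared for the 7 members whose mean reached 0.25 UMI per cell in each library. In 4 of the 7 (Bbc3, Bax, Apaf1 and Aen) it was higher in Idoxuridine cells, against 79.2% of 7316 genes measured. Their median log2 Fano ratio was 0.01, against 0.08 for all genes. None of the 7 reached 0.5 log2, which 2.54% of all genes did. Aen had the highest ratio at this depth (0.28), with Fano factors of 1.51 in Idoxuridine and 1.24 in DMSO. The order depended on depth: with unthinned UMIs the log2 Fano ratio was 0.62 for Bbc3 and 0.24 for Aen, and at 10000 UMIs it was 0.06 for Bbc3 and 0.11 for Aen. The pro-survival genes stayed near counting, with Mcl1 at 1.11 in Idoxuridine and 1.15 in DMSO and Bcl2l1 at 1.03 in Idoxuridine and 1.13 in DMSO.

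Among these 7 members Perp had the highest Fano factor in both libraries. Its Fano factor was 3.59 in Idoxuridine and 4.86 in DMSO, at means of 1.88 UMIs per Idoxuridine cell and 0.5 UMIs per DMSO cell. Its squared coefficient of variation, less the counting part, was 1.38 in Idoxuridine and 7.72 in DMSO. The 5% of cells with the most Perp UMIs held 27.1% of them in Idoxuridine and 60.3% in DMSO, up to 18 UMIs in a single Idoxuridine cell and 20 in a DMSO cell. So the DMSO library had most of its Perp in few cells, and the Idoxuridine library had it in many. The log2 Fano ratio of Perp was -0.44 over all cells of the fixed depth, -0.74 at 10000 UMIs and -0.65 with unthinned UMIs. By phase it was -0.14 within S phase, -0.03 within G2/M and -1.16 in the few cells called G1. In cells of a like nuclear-retained RNA share it was 0.09. Bbc3 had corrected values of 0.268 in Idoxuridine and 0.545 in DMSO, so its relative spread was lower where its level was higher. By this corrected measure 77.3% of 6598 genes were higher in Idoxuridine.

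**Figure D4:**
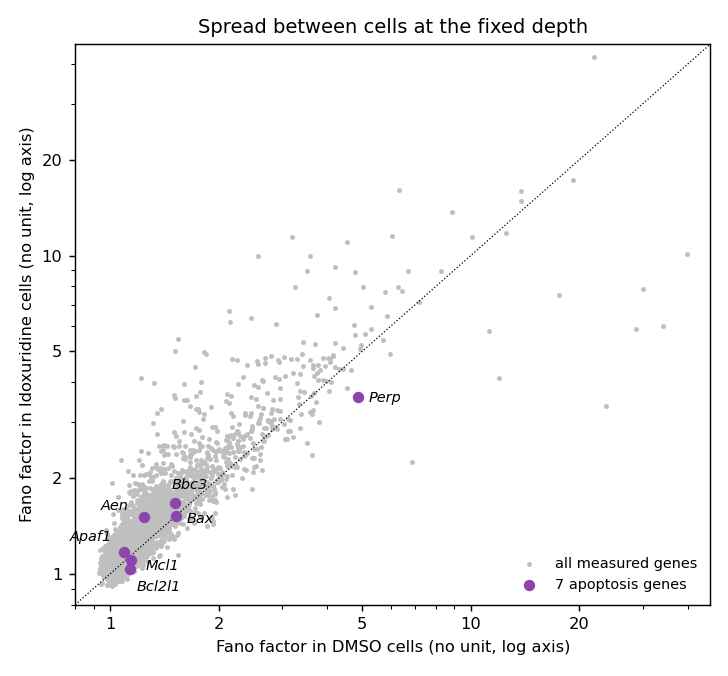
Fano factor in Idoxuridine cells (vertical) against DMSO cells (horizontal) at 23500 UMIs per cell on log axes, grey for all 7316 genes measured and purple for 7 members, with the dotted line marking equal values. Perp lies below the line, at 3.59 in Idoxuridine and 4.86 in DMSO, while the other 6 lie close to it within the bulk of genes.

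Cells were also ranked by the summed UMIs of the 8 members, a sum of which Bax and Aen made up 74.6% in Idoxuridine and 88.6% in DMSO. Known p53 targets such as Phlda3 and Ccng1 were among the genes that went with this sum from cell to cell. The 8 genes with the highest Pearson correlation with it, over 648 Idoxuridine cells and among 7311 genes, were Phlda3 (r 0.39), Ptp4a3 (0.33), Psrc1 (0.32), Serpine2 (0.29), Ddit4 (0.28), Dcxr (0.28), Ccng1 (0.28) and Tmem43 (0.28). Over 764 DMSO cells the highest were Psrc1 (0.47), Phlda3 (0.44), Ccng1 (0.43), Pmm1 (0.39), Ptp4a3 (0.39), Rtkn (0.39) and Serpine2 (0.38). The 99th percentile over all genes was 0.18 in Idoxuridine cells and 0.23 in DMSO cells. Mcl1 and Bcl2l1 were near 0, at -0.01 and 0.01 in Idoxuridine cells and 0.02 and 0.01 in DMSO cells. These are descriptions over cells that share a library and a fixed depth. Between single members all 45 pairs were weak, from -0.07 to 0.17 in Idoxuridine cells and from -0.06 to 0.17 in DMSO cells, and in counts this sparse no finding is drawn from them.

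The rest of the death pathway differed in parts. Of 9 other p53 death targets, 4 stood at least 0.5 log2 higher and none lower, against 18.8% higher among all genes, with a median of 0.41 (0.20 with TMM). With TMM scaling 3 stood higher, against 12.1% of all genes. The 4 higher by total UMIs were Steap3 (2.30), the death receptor gene Tnfrsf10b (1.09), Trp53inp1 (0.80) and Phlda3 (0.59, and 0.38 with TMM), an inhibitor of the kinase Akt. Tnfrsf10b stood at 20.2 CPM in Idoxuridine and 9.46 CPM in DMSO. Of 19 genes of p53 feedback and arrest 5 stood higher and none lower, a share near the 18.8% of all genes, with a median of 0.30 (0.09 with TMM). The other 14 did not reach 0.5 in either direction, among them Cdkn1a (0.22, and 0.01 with TMM) and Trp53 itself (-0.47). With TMM scaling 5 stood higher and 1, Trp53 (-0.68), lower, against 12.1% higher and 12.2% lower among all genes. The list was led by Rprm (3.5), Plk2 (1.06), Ephx1 (0.92) and Mdm2 (0.86).

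Caspases and death receptors differed gene by gene. Casp8, the initiator caspase at death receptors, stood at 9.49 CPM in Idoxuridine and 3.8 CPM in DMSO, a log2 ratio of 1.32. Casp9, the caspase of the apoptosome, stood at 11.6 CPM in Idoxuridine and 11.3 CPM in DMSO, a log2 ratio of 0.03. Among 6 measured death receptor and adaptor genes, out of 8, Tnfrsf1a (0.90), Ripk1 (0.76) and Tradd (0.51, and 0.30 with TMM) were higher, and Fadd, the adaptor between Fas and Casp8, was lower (-0.63). Of all genes 18.8% were higher and 4.2% lower. With TMM scaling 2 of the 6 were higher and 2 lower, as Cradd went from -0.31 to -0.52. The shares of all genes were then 12.1% higher and 12.2% lower. The ligand gene Fasl had no UMI in either library, which allows up to 0.0985 CPM in Idoxuridine and 0.0735 CPM in DMSO, taking 3 UMIs per library as the limit of a count of 0.

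Of 5 caspase inhibitors 1 stood higher, near the share of all genes, which was Birc3 (0.71). With TMM scaling Birc3 was at 0.495 and none of the 5 stood higher. Xiap stood at 0.30. Among 5 factors released from mitochondria 1 stood higher, near the share of all genes, which was the nuclease gene Endog (0.84). Cytochrome c (Cycs, -0.09) and Diablo (-0.13) did not differ by 0.5. With TMM scaling Endog was at 0.63, and Aifm1 stood lower, at -0.53 (-0.31 by total UMIs). The DNA-cutting nuclease gene Dffb stood higher (0.67, and 0.46 with TMM), and Dffa, its inhibitor, at 0.11. Bnip3 (0.80, and 0.58 with TMM) was the higher 1 of the 4 other BH3-only genes measured, out of 7. Bid was the lower 1 (-0.74, and -0.95 with TMM). The shares of all genes were 18.8% higher and 4.2% lower, or 12.1% and 12.2% with TMM scaling. Under 200 UMIs, Bik (80 UMIs in Idoxuridine and 19 in DMSO) and Bmf (41 and 24) also stood higher with separate intervals. Hrk (11 and 9) had intervals that overlap. None of the 6 other pro-survival genes reached 200 UMIs, and Bcl2 itself stood at 0.657 CPM in Idoxuridine and 0.539 CPM in DMSO. Mcl1 and Bcl2l1 thus carried nearly all pro-survival UMIs of the family in both libraries.

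**Figure D5:**
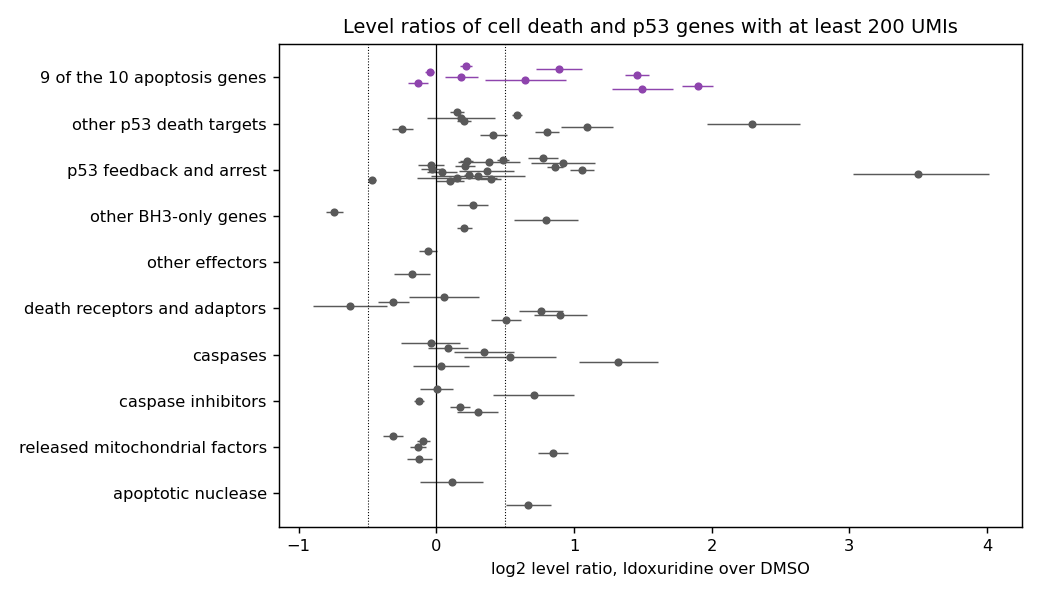
Log2 level ratio of Idoxuridine over DMSO for every gene with at least 200 UMIs in the lists, with 95% counting intervals, purple for 9 of the 10 members and grey for the other lists, and dotted lines at 0.5 on either side of 0. Members spread from -0.13 (Mcl1) to 1.90 (Perp), and Steap3 (2.30) and Rprm (3.5) lie farthest to the right.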

How the data were processed

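Per the labels, 10x Chromium 3′ V2 libraries were sequenced on an Illumina instrument. About 3000 cells were loaded per sample, and the files hold 742 Idoxuridine and 811 DMSO barcodes. Per the submitters' processing notes, the tools were Cell Ranger 2 and Seurat and the build mm10, with no roles stated. How cells were called and which annotation release was used is not stated there. The deposited values are counts, whole UMIs per gene and cell, not normalized, and all deposited barcodes were used. UMIs were summed per library and scaled to CPM with exact Poisson intervals, ratios with exact conditional binomial intervals and shares with Clopper-Pearson intervals (differences by Newcombe's method). Shares and spread were computed after thinning each cell to 23500 UMIs (the 10th percentile over both libraries, rounded down to a multiple of 500), which left out 94 Idoxuridine cells (12.7%) and 47 DMSO cells (5.80%). Without thinning, a Bbc3 UMI was in 92.7% of Idoxuridine cells and 73.5% of DMSO cells, and a Perp UMI in 72.5% of Idoxuridine cells and 34.9% of DMSO cells. Means and Fano factors use the exact expectation of thinning, and shares, phases and correlations 1 seeded draw. Phases were called with scanpy 1.11.5 from Seurat 5.3.0 gene lists, and TMM factors with edgeR 4.0.16. No doublet caller was run. The steps were tested on simulated data. Gene identifiers were found in GENCODE M21 for 27645 of 27998. Members and lists were chosen with earlier results of these data known. All members are named, and of each list up to 4 genes per direction by size; a few genes that the rules would name are not reported here. Alternatives changed scaling, cells, depth and genes counted. With 1 library per group no test was possible.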

Additional observations from a re-analysis of the deposited data

How the results depend on the processing

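No paired analysis was possible because each treatment has 1 library. The count of 5 higher members stayed within 1.5 times under every alternative run (6 with no minimum of UMIs, which adds Fas) except in cells called G1 phase, 15 Idoxuridine and 9 DMSO cells, where it was 0. There the log2 ratios were -0.41 for Bbc3, -0.70 for Pmaip1, -0.11 for Bcl2l11, -0.70 for Bcl2l1, -0.060 for Apaf1 and -0.15 for Perp, the Fano factor was higher for 1 member, and log2 Fano ratios were -0.89 for Bbc3, -0.62 for Aen and -0.011 for Apaf1. Differences in share there were -6.67 points (cells with more pro-death UMIs), 1.35 points (BH3-only UMIs) and 4.44 points (cells with more BH3-only UMIs). The number of cells limits these values. The pro-death share difference of 2.45 points was 0.547 without Bbc3, 23.5 without Bax, -0.00635 without Mcl1, 0.534 with all family genes, 4.40 in S phase and 1.41 in G2/M cells. The difference in cells with more pro-death UMIs was -0.978 points without Bbc3 and 30.5 without Bax. At 10000 UMIs, where the cells counted differ too, it was 6.5 points (3.54 to 9.45). The BH3-only share difference was 26.8 points in S phase and 25.8 in cells of a like nuclear-retained RNA share, and that in cells 24.5 points at 10000 UMIs. With all BH3-only and pro-survival genes of the lists these differences were 2.38 points of UMIs and 2.14 points of cells, and without Bbc3 8.86 and 3.45 points. Log2 level ratios of Bcl2l1 turned to -0.030 with TMM, -0.072 with median-of-ratios and -0.029 in cells of a like nuclear share, and Aen to -0.036 with median-of-ratios. Log2 Fano ratios changed sign for Bbc3 (-0.14) and Perp (0.094) in cells of a like nuclear share, for Bax with raw UMIs (-0.42), in G2/M (-0.14) and in deeper cells (-0.18), for Mcl1 (0.048), Bcl2l1 (0.00419) and Apaf1 (-0.00479) at 10000 UMIs, for Mcl1 in G2/M (0.12) and for Apaf1 in S phase (-0.087). Outside G1 cells the log2 ratio ran from 1.21 to 1.63 for Bbc3, 1.24 to 1.71 for Pmaip1, 1.5 to 2.44 for Perp and 0.64 to 1.26 for Apaf1. Apart from what leaving out a gene or using few cells shows, the cause was not tested. The size of the Fano ratios moved too: Bbc3 was at 0.62 with raw UMIs and 0.41 in deeper cells, and Apaf1 at 0.35 in G2/M. The deeper-cell, marker-cell and BH3-only alternatives were chosen after seeing the data.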

Other observations

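Cells called G1 phase were few, 15 in Idoxuridine (2.31%) and 9 in DMSO (1.18%), and are given here as values only. Perp stood at 200 CPM (159 to 248) in Idoxuridine G1 cells and 221 CPM (167 to 287) in DMSO G1 cells, with intervals that overlap. Bbc3 stood at 80.3 CPM (55.3 to 113) in Idoxuridine G1 cells and 107 CPM (70.2 to 155) in DMSO G1 cells, again with overlap. Their nuclear-retained RNA share had a median of 1.19% in Idoxuridine and 0.589% in DMSO, and its part in these levels was not tested.

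Cells with at least 5 Perp UMIs at the fixed depth numbered 76 in Idoxuridine and 18 in DMSO. In Idoxuridine their median summed stem cell marker UMIs were 90, against 103 in the other Idoxuridine cells, and in DMSO 147.5 against 141. Their median nuclear-retained RNA share was 0.582% against 0.474% in Idoxuridine and 0.610% against 0.310% in DMSO. Median UMIs per cell before thinning were lower as well, at 32352 against 40384 in Idoxuridine and 33562 against 46242 in DMSO. These cells were chosen by Perp itself, so no comparison of Perp between them is made.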
